A study of Mus musculus with 6 samples.

Results

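The genes described here are the R-spondin receptors Lgr4, Lgr5 and Lgr6, the secreted R-spondins Rspo1 and Rspo3, and the membrane ubiquitin ligases Rnf43 and Znrf3. They were taken as every probe set of the array that GEO's platform annotation assigns to exactly 1 of these 7 symbols, which gave 12 probe sets of 45037. Lgr4, Lgr5, Lgr6, Rspo3 and Znrf3 had 2 probe sets each, and Rspo1 and Rnf43 had 1 each. All 6 arrays of the series were used: 3 of ALDH-positive and 3 of ALDH-negative ovarian surface epithelium (OSE) cells, which form the outermost layer of the ovary. Donors were virgin FVB/N mice of 8 weeks, with no allele or agent named for either group, and the cells were cultured for 24 hours before the sort. The fractions were defined by ALDEFLUOR, a dye that aldehyde dehydrogenases (ALDH) turn into a fluorescent product held in the cell, with cells given the inhibitor diethylaminobenzaldehyde as the staining control. Animals were combined in 3 pools of 10 mice, and both fractions of a pool were hybridized, so a value stands for a pool and not for an animal. Pool numbers are the replicate numbers of the sample titles, and same-numbered arrays were assumed to come from the same pool.

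R-spondins raise the response of a cell to Wnt ligands. Rnf43 and Znrf3 mark the Wnt receptors of the frizzled family for removal from the cell surface, and an R-spondin bound to an Lgr receptor and to 1 of these ligases takes the ligase away, so that frizzled receptors stay. In the mouse, Lgr5 marks stem cells of the intestine and cells of the ovarian surface epithelium, Rspo1 is needed for ovarian fate in the fetal gonad, and Lgr5, Rnf43 and Znrf3 are themselves raised by Wnt signalling in the intestine. The comparison asked which of these genes differ between cells of high and of low ALDH activity from the same pool.

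Signals are log2 values after quantile normalization of the 6 arrays, and differences are ALDH-positive minus ALDH-negative. A probe set was tested if its mean over the arrays exceeded 2.73, the level below which the dimmest 40% of probe sets lie. Of the 12 probe sets, 10 passed, among them the brightest one of each gene. One ALDH-negative array, that of pool 2, was unlike the rest: it correlated at 0.561 to 0.687 with them, and the remaining 5 at 0.845 to 0.974 among themselves. On that array the control probe set of 18S rRNA read 5.80 and that of Actb 5.03, against at least 8.66 and 9.56 on the others. The 5′ probe set of Gapdh, low where RNA is degraded, read 5.20 against 10.50 at the 3′ end in ALDH-positive cells of pool 3, and 6.63 against 10.22 in ALDH-negative cells of pool 3. The part of RNA quality in the differences was not tested, and for the members and the named genes that pool 2 moves strongly the value without it is given. On 6 of the 12 probe sets, and on 3 of the 7 brightest ones per gene, the ALDH-negative array of pool 2 held the lowest or the highest of the 6 values. The share over all probe sets was not counted, so these counts do not set the members apart.

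Promoter sequence was at hand for the R-spondin of largest difference and for the receptor that was bright in both fractions. Both are shown because these genes differ in how they separated the fractions, and no link between promoter sequence and signal was tested. The stretches are RefSeq sequence of GRCm38.p6 upstream of the annotated gene, chr4:124986180-124986400 on the plus strand for Rspo1 and chr2:109917397-109917646 on the plus strand for Lgr4. Capitals mark the matches to the core motif of TEAD factors, GGAATG. In Lgr4 both matches lie on the opposite strand, so that the printed letters are those of its reverse complement.
Rspo1: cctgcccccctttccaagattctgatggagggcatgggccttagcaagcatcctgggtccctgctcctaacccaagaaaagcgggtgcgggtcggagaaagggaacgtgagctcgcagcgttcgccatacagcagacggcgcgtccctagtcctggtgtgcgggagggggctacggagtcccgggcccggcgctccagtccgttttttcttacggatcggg
Lgr4: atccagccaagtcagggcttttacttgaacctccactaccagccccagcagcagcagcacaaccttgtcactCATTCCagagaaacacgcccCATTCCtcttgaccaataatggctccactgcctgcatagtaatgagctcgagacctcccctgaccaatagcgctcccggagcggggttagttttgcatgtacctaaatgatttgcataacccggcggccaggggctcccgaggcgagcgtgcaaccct
In the 250 bases before the start site of each transcript, both strands were searched for 5 motifs, and no match overlapped that of another motif. The windows of Rspo1 and Lgr6 reach into the annotated gene, beyond the stretch printed for Rspo1, and the second window of Rnf43 lies within its gene. Lgr4 held GGAATG at 178 and 158 bases before the start site, and 12.6% of all 32841 such windows held it. Lgr6 held 1 GC box, GGGCGG, which was present in 32.7% of windows. The core of TCF and LEF factors, through which Wnt signalling acts on genes, is CTTTGA, and 13.8% of windows held it. A motif that nuclear receptors bind, AGGTCA, was present in 14.0% of windows. The TATA box, searched as TATAAA, was present in 12.4% of windows. None of the 5 motifs was found in the window of Rspo1 or in the 2 windows of Rnf43, and the last 3 motifs were found in no window of a member. The entries matched were those of Lgr4, Lgr6, Rspo1 and Rnf43, which is 4 of the 7 genes.

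Rspo1 and Lgr5, a ligand and a receptor of the same complex, were the members whose brightest probe set lay far apart between the fractions in every pool. The dimmer probe set of Lgr5 overlapped between the fractions and differed by -0.10 in pool 3. At limma's Benjamini-Hochberg adjusted p under 0.05, 0 of 27022 probe sets passed (0% higher and 0% lower), so no gene can be said to have changed by that test. At an unadjusted p under 0.05, 2 of the 10 tested probe sets were higher, those of Rspo1 and Lgr5, against a background of 2.04% of all tested probe sets, and none was lower, against 0.403%. With 1 probe set per gene, 3 of the 7 genes (Rspo1, Lgr5 and Rnf43) had every ALDH-positive array above every ALDH-negative array. That held for 3.49% of the tested probe sets and 3.55% of the tested genes. None of the 7 had every ALDH-positive array below, against 3.4% of probe sets and 426 of 12814 genes. The same 3 genes were higher in all 3 pools, against 11.5% of probe sets and 1444 of 12814 genes. None was lower in all 3, against 10.8% of probe sets and 1467 of 12814 genes. The probe sets of Lgr5 and Rnf43 exceeded the filter level on the ALDH-positive arrays only, and so were tested because of the group in which they are high. The counts therefore describe the members and give no support of their own, and Rnf43 overlapped between the groups in the values as deposited. The median difference of the 7 genes was 0.75, and that of all 12814 tested genes was -0.08, with 46% of genes above 0. With arrays centred on their medians instead, all genes had a median of 0.25, with 62.5% above 0, and the members one of 0.77. Pool 2 gave the members a median of 1.48, against 0.33 in pool 1 and 0.45 in pool 3, and without pool 2 the median was 0.38.

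**Figure D1:**
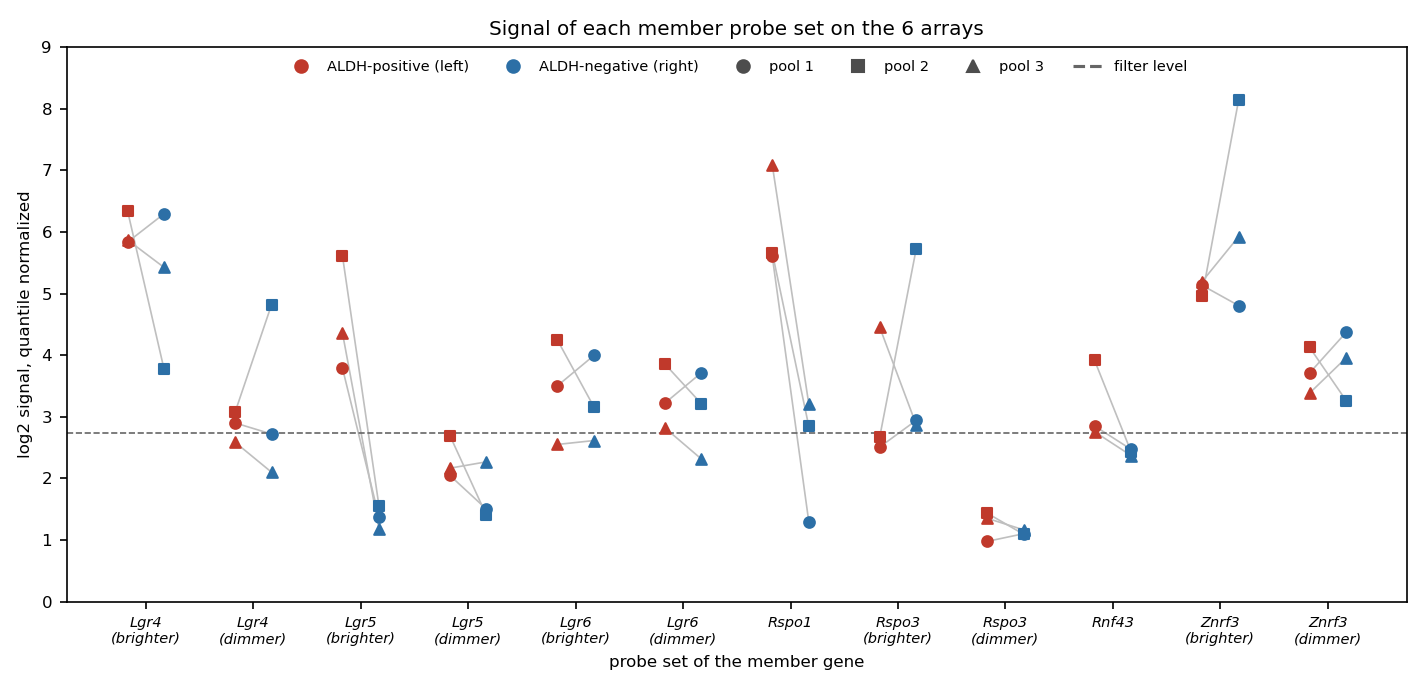
Log2 signal (vertical axis, quantile normalized) of each of the 12 member probe sets on the 6 arrays, with ALDH-positive points at the left and ALDH-negative points at the right of each pair, marker shapes for the pools and grey lines joining the fractions of a pool. Rspo1 and the brighter Lgr5 probe set are lower at the right in all 3 pools. The ALDH-negative square of pool 2 is the highest value of the brighter Znrf3 probe set, at 8.14, and the lowest of the brighter Lgr4 one, at 3.77. For the dimmer probe sets it is the lowest of Znrf3, at 3.26, and the highest of Lgr4, at 4.82.

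Among the ligands, Rspo1 (1449319_at) read 5.60, 5.66 and 7.09 in ALDH-positive cells of pools 1, 2 and 3, against 1.30, 2.85 and 3.21 in ALDH-negative cells. The groups did not overlap, and the lowest ALDH-positive value was 2.39 above the highest ALDH-negative one. Within its own array the probe set lay at percentiles 81.1, 81.8 and 92.6 of all probe sets in ALDH-positive cells, and at 13.4, 45.2 and 51.2 in ALDH-negative cells. The mean difference was 3.67 (SE 0.67, 95% interval 2.10 to 5.24, n = 3 pools), with an unadjusted limma p of 7.73e-04 and an adjusted p of 0.895. Its mean was 6.12 ± 0.84 (SD, n = 3) in ALDH-positive cells and 2.45 ± 1.01 in ALDH-negative cells. Pool 2 gave the smallest of the pool differences, 2.82 against 4.31 and 3.88, so the mean without pool 2 was larger, at 4.09. Ordered by the size of the positive difference, Rspo1 stood at place 17 of 12814 tested genes.

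Rspo3, which binds the same receptors, gave no such pattern. Its brighter probe set (1443187_at) read 2.51, 2.67 and 4.45 in ALDH-positive cells, against 2.94, 5.73 and 2.87 in ALDH-negative cells. The high values were those of ALDH-positive cells in pool 3 and of ALDH-negative cells in pool 2, and the other 4 arrays lay between 2.51 and 2.94. The pool differences were -0.43, -3.05 and 1.58, with a mean of -0.64 (SE 0.94, limma adjusted p = 0.899), within the spread between pools. Without pool 2 the mean was 0.57. The dimmer probe set (1455607_at) stayed between 0.98 and 1.44 in ALDH-positive cells and between 1.09 and 1.17 in ALDH-negative cells, near the bottom of every array, and was not tested. The difference of Rspo1 exceeded that of Rspo3 by 4.74, 5.87 and 2.30 in the 3 pools (mean 4.30; two-sided exact permutation of the signs, p = 0.25). No smaller p is possible for this permutation with 3 pairs, so it cannot reach 0.05.

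Among the receptors, Lgr5 (1450988_at) read 3.79, 5.61 and 4.36 in ALDH-positive cells, against 1.38, 1.55 and 1.18 in ALDH-negative cells. The fractions were separated by at least 2.24, and the ALDH-negative values were close together. The array percentiles were 59.7, 81.2 and 67.1 in ALDH-positive cells, and 15.2, 19.1 and 10.9 in ALDH-negative cells. All 3 ALDH-negative signals lay below the filter level. The difference was 3.22 (SE 0.68, 95% interval 1.63 to 4.80), with an unadjusted limma p of 0.00177 and an adjusted p of 0.895, and 2.80 without pool 2. Lgr5 read low on the ALDH-negative array of pool 2 as it did on the other ALDH-negative arrays.

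A second Lgr5 probe set (1444519_at) did not show the separation. It read between 2.05 and 2.70 in ALDH-positive cells and between 1.40 and 2.27 in ALDH-negative cells. The groups overlapped, and pool 3 differed by -0.10. Its mean difference of 0.58 had an SD over pools of 0.70 and was 0.22 without pool 2. The probe set was too dim to be tested. With the mean of both probe sets in place of the brighter one, the difference of Lgr5 was 1.90 (limma adjusted p = 0.878).

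Lgr4, the most broadly expressed receptor of the family, was bright in both fractions. Its brighter probe set (1433891_at) read 5.83, 6.34 and 5.87 in ALDH-positive cells, against 6.29, 3.77 and 5.42 in ALDH-negative cells. Apart from the ALDH-negative array of pool 2, all values lay between 5.42 and 6.34 and the groups overlapped. The mean difference was 0.85 (SE 0.78, limma adjusted p = 0.895), and -0.0070 without pool 2. The dimmer probe set (1453765_at) gave -0.36 (SE 0.73), with pool differences of 0.18, -1.75 and 0.49, and 0.33 without pool 2.

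Lgr6, a receptor that marks stem cells of the hair follicle in the mouse, read 3.50, 4.25 and 2.55 in ALDH-positive cells, against 3.99, 3.16 and 2.61 in ALDH-negative cells (1436218_at). Here the pools differed more than the fractions did, with pool 3 low in both. The difference was 0.18 (SE 0.68, 95% interval -1.40 to 1.76, limma adjusted p = 0.957), and -0.28 without pool 2. The other probe set of Lgr6 (1427028_at) gave 0.22 (SE 0.66), and 0.0060 without pool 2. Lgr5 exceeded Lgr6 in its paired difference by 2.91, 2.97 and 3.24 in the 3 pools, and Lgr4 by 2.88, 1.49 and 2.73. With 4 such pairs of members compared, each exact p was 0.25 and each adjusted p was 0.25. These pairs were chosen with earlier results known.

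**Figure D2:**
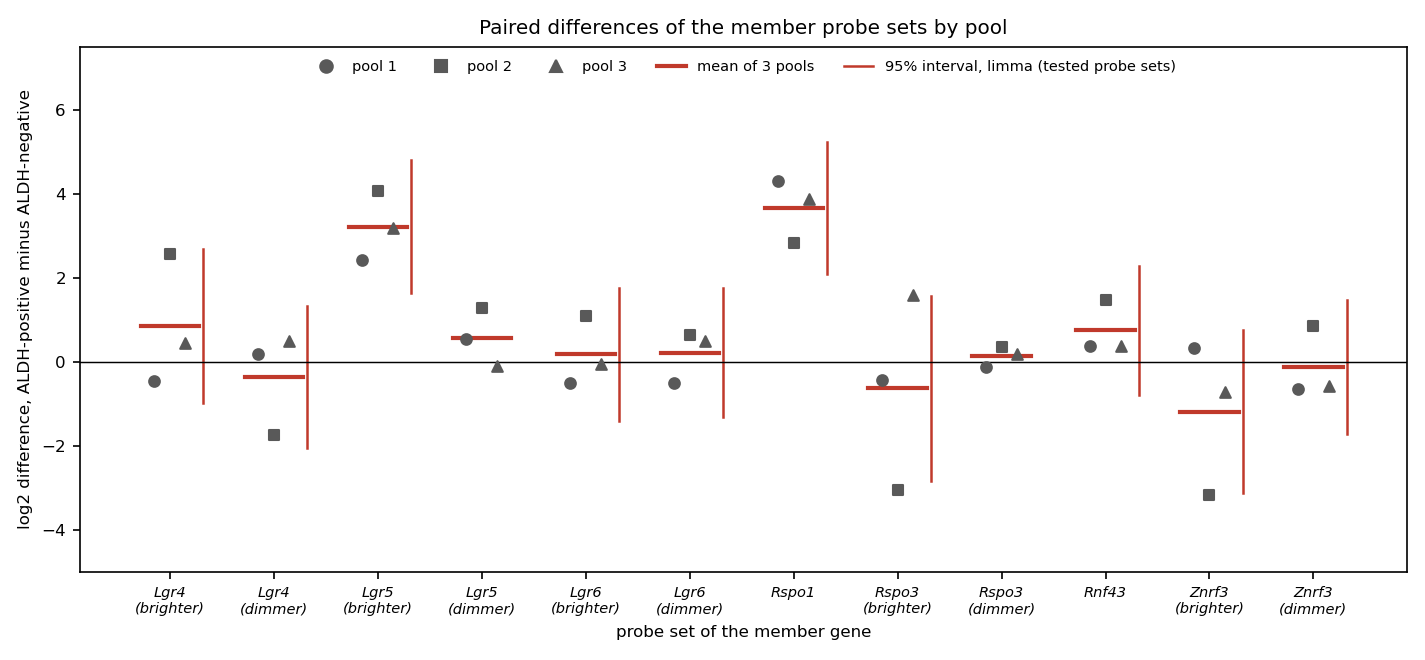
Log2 difference of ALDH-positive minus ALDH-negative (vertical axis) for the 12 member probe sets, with a marker for each of the 3 pools, a thick bar at their mean and a thin line for limma's 95% interval where the probe set was tested. The intervals of Rspo1 and of the brighter Lgr5 probe set lie above 0, and those of the other 8 tested probe sets include 0.

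Of the ligases, Rnf43 (1427008_at) read 2.85, 3.91 and 2.76 in ALDH-positive cells, against 2.47, 2.43 and 2.37 in ALDH-negative cells. ALDH-positive cells were higher in each pool, although the lowest of them exceeded the highest ALDH-negative value by only 0.29, and all ALDH-negative values were below the filter level. The difference was 0.75 (SE 0.66, limma adjusted p = 0.895), with 1.48 in pool 2 and 0.38 as the mean of the other pools. In the values as deposited the groups overlapped, since the lowest ALDH-positive array read 2.74 there and the highest ALDH-negative array 2.93.

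Znrf3, the related ligase, had the highest value of its brighter probe set and the lowest of its dimmer one, 3.26, on the ALDH-negative array of pool 2. The brighter probe set (1437646_at) read 5.13, 4.96 and 5.19 in ALDH-positive cells, against 4.80, 8.14 and 5.92 in ALDH-negative cells. The ALDH-positive values lay close together (SD 0.12), while the ALDH-negative values were spread widely (SD 1.70). The difference was -1.19 (SE 0.83, limma adjusted p = 0.895), and -0.20 without pool 2. In the values as deposited, the ALDH-negative array of pool 2 read 6.70 and the difference was -0.69. With arrays centred on their medians the difference was -0.52. The dimmer probe set (1435608_at) differed by -0.12 (SE 0.68), and by -0.62 without pool 2. Its sign was opposite to that of the brighter one in pools 1 and 2. The difference of Rnf43 exceeded that of Znrf3 by 0.05, 4.67 and 1.12 in the 3 pools.

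Paired probe sets of a gene often differed in course. Across the 6 arrays the pairs correlated at 0.94 for Lgr6, 0.72 for Lgr5, 0.0093 for Rspo3, -0.65 for Znrf3 and -0.77 for Lgr4. Over all 5829 genes with 2 tested probe sets the median correlation was 0.337, and the mean differences of the pair had the same sign in 60.5%. Among the members that sign was the same for Lgr5, Lgr6 and Znrf3 and opposite for Lgr4 and Rspo3, so they were not set apart from that background. The pairs of Lgr5 and Rspo3 each hold a probe set too dim to be tested, unlike the pairs of the background. Without the ALDH-negative array of pool 2 the correlations were 0.95 for Lgr6, 0.67 for Lgr5, 0.45 for Rspo3, -0.28 for Znrf3 and 0.81 for Lgr4. These correlations describe 6 arrays that share pools and carry no test.

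The labelled cell type was checked against its markers. All 12 markers of surface epithelium and mesothelium were above the filter level on each ALDH-positive array, and 8 of 12 on each ALDH-negative array. Their summed linear signal was 2445 to 3174 in ALDH-positive cells and 278 to 518 in ALDH-negative cells. All 12 were higher in each pool, against 11.5% of tested probe sets, and at an unadjusted limma p under 0.05, against 2.04%. Their median difference was 3.52, and 3.76 without pool 2. Wt1, a transcription factor of the coelomic epithelium, read 7.43, 7.54 and 6.95 in ALDH-positive cells, against 5.16, 5.45 and 5.10 in ALDH-negative cells. Rspo1 and Lgr5 were thus high in the fraction where these markers were high, and the part of cell composition in their differences was not tested. In bulk samples, fewer cells of a type and less RNA per cell cannot be told apart. No marker on any list had a signal of exactly 0.

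Markers of other cell types followed a less even course. Steroidogenic genes summed to 3409 to 4971 in ALDH-positive cells, against 4618 to 7167 in ALDH-negative cells of pools 1 and 3 and 304 in those of pool 2. Except on that last array, this sum exceeded that of the surface epithelium markers. The brightest, Fdx1, Hsd3b1 and Cyp11a1, lay at percentiles 99.7, 99.5 and 98.7 of all probe sets by mean signal, while Cyp17a1 was too dim to be tested. Of the granulosa genes, Inhba and Inha lay at 98.2 and 97.6, while Fshr was too dim. Both fractions thus carried strong signal of markers outside the labelled cell type. Smooth muscle and pericyte genes summed to 1266 to 1640 in ALDH-positive and 177 to 365 in ALDH-negative cells. Of 6 tested, 3 were higher in all pools, against 11.5% of tested probe sets. The other 3 had negative means: Myh11 (-1.05), Cspg4 (-0.53) and Des (-0.33), which were 0.07, 0.67 and 0.62 without pool 2. The sums of granulosa genes (1020 to 1626 against 153 to 2221), stroma (2179 to 3206 against 954 to 2795), endothelium (59.8 to 119 against 67.7 to 109), leukocytes (37.1 to 306 against 61.0 to 330) and oviduct epithelium (33.4 to 53.9 against 27.8 to 60.01) overlapped between ALDH-positive and ALDH-negative cells. Some single stroma genes did not. Of 8 tested, the collagen genes Col3a1 (3.90, SE 0.77) and Col1a1 (1.94, SE 0.79, and 2.70 without pool 2) and the surface protein gene Thy1 (1.80, SE 0.65) were higher without overlap. Each had an unadjusted limma p under 0.05. Over all tested probe sets, 3.49% were higher without overlap and 3.4% lower. In the same list Pdgfrb (-0.82, and 0.20 without pool 2) and Vim (-0.06, and 0.38 without it) had negative means. Among the smooth muscle genes, Acta2 (3.59, SE 0.68) and Tagln (2.94, SE 0.67) were also higher without overlap. These 5 genes that were higher without overlap were named after their values were seen. Their differences include ones as large as those of Rspo1 and Lgr5. In the other direction, 1 of 4 tested endothelial genes, Eng (-1.16, SE 0.65), was lower without overlap, and it too was named after its values were seen. The part of these cell types in the differences of the members was not tested.

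The receptors that the ligases act on overlapped between the fractions. Of 12 frizzled and Lrp genes tested, 0 passed in either direction, 4 had a positive and 8 a negative mean difference, and none had groups that did not overlap. Non-overlap held for 3.49% of tested probe sets upward and 3.4% downward, so its absence among 12 genes says little about them. The median of the 12 was -0.38, against 0.25 without pool 2 and 0.13 with arrays centred on their medians, where 6 were positive and 6 negative. Over all tested genes 46% were above 0, and 62.5% with arrays centred on their medians. The Wnt coreceptor Lrp6 differed by 0.16 (SE 0.64) and Lrp5 by -1.07 (SE 0.72). Among the frizzled receptors of smallest p, Fzd10 differed by -1.64 (SE 1.28), Fzd4 by 0.90 (SE 0.70) and Fzd7 by 0.87 (SE 0.72). Fzd10 read 8.10 on the ALDH-negative array of pool 2, and 6.67 there as deposited. Without that pool the differences were 0.46 for Fzd10, 0.38 for Fzd4 and 0.42 for Fzd7.

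Other R-spondins and genes of R-spondin binding or Wnt relay gave 0 passing of 6 tested, with a median of 0.90 and 0.45 without pool 2. Rspo2 was too dim to be tested, with 2.21, 2.01 and 2.83 in ALDH-positive cells, against 2.15, 3.88 and 2.42 in ALDH-negative cells. Rspo4 differed by -0.24 (SE 0.75) and by 0.52 without pool 2. Rspo1 was thus the R-spondin gene whose arrays did not overlap between the fractions. The heparan sulphate proteoglycans Gpc3 and Sdc4 differed by 0.91 (SE 0.64) and 0.90 (SE 0.80), the integrin Itgb1 by 0.99 (SE 0.70) and the deubiquitinase Usp34 by 1.03 (SE 0.76). Without pool 2 they were 0.96 for Gpc3, -0.0081 for Sdc4, 0.57 for Itgb1 and 0.39 for Usp34.

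Of 14 Wnt ligands tested, 0 passed, 4 had a positive and 10 a negative mean, with a median of -0.42, against 0.28 without pool 2. With arrays centred on their medians the majority turned, with 8 positive and 6 negative and a median of 0.03. Over all tested genes 46% were above 0, and 62.5% with that centring. Wnt9a was the 1 ligand without overlap, against 3.49% of tested probe sets upward and 3.4% downward. It read 6.99, 7.05 and 6.09 in ALDH-positive cells, against 3.78, 5.19 and 6.01 in ALDH-negative cells (difference 1.71, SE 0.79). Wnt8b differed by -2.03 (SE 1.04), Wnt11 by -0.84 (SE 0.79) and Wnt6 by -0.70 (SE 0.69). For Wnt8b the ALDH-negative array of pool 2 read 7.26, and 6.02 as deposited. Without that pool the differences were -0.56 for Wnt8b, 0.07 for Wnt11 and -0.15 for Wnt6.

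Genes that Wnt signalling through beta-catenin is known to raise differed in direction. None of 10 tested passed, 7 had a positive and 3 a negative mean, and the median was 0.58, against 0.85 without pool 2. Over all tested genes 46% were above 0. In the values as deposited and with arrays centred on their medians 9 were positive and 1 negative, with medians of 0.75 and 0.91. On these 2 scales 53.8% and 62.5% of all tested genes were above 0. Axin2, a feedback inhibitor and general target of the pathway, read 7.20, 7.21 and 6.32 in ALDH-positive cells, against 6.59, 5.54 and 6.40 in ALDH-negative cells. Its groups overlapped, with a difference of 0.73 (SE 0.68) and of 0.27 without pool 2. Lef1, a transcription factor of the pathway, differed by 0.19 (SE 0.77), and by 0.84 without pool 2. Every ALDH-positive array lay above every ALDH-negative one for 3 of the 10, against 3.49% of tested probe sets. These were the hyaluronan receptor Cd44 (1.61, SE 0.70, and 1.10 without pool 2), the transcription factor Sox9 (1.08, SE 0.65) and Ccnd1, which encodes cyclin D1 (0.97, SE 0.64). Ccnd1 was named after its values had been seen.

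Apcdd1, a membrane inhibitor of Wnt signalling, lay in the other direction. It read 3.02, 3.14 and 5.44 in ALDH-positive cells, against 4.95, 8.32 and 6.25 in ALDH-negative cells. It was lower in each pool, with a difference of -2.63 (SE 0.93, limma adjusted p = 0.895) and of -1.36 without pool 2. Myc, a target in many tissues, differed by 1.88 (SE 1.11), and by 0.12 without pool 2.

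**Figure D3:**
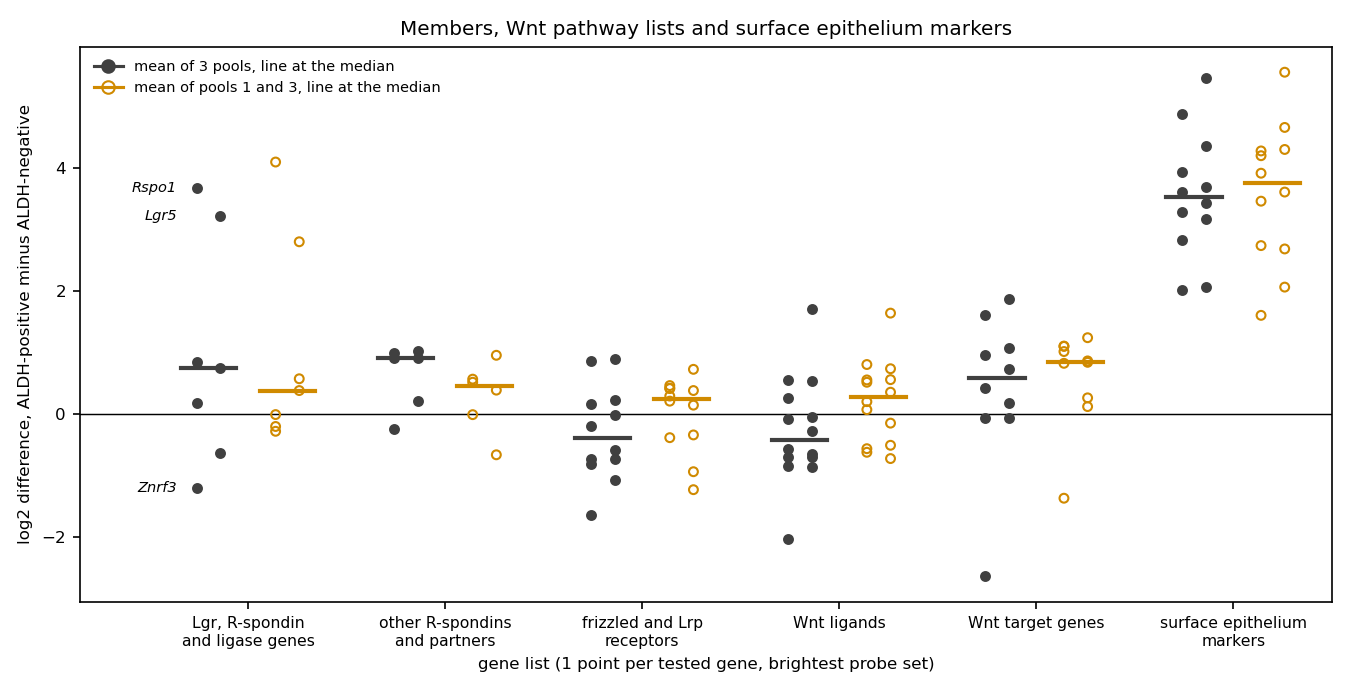
Log2 difference of ALDH-positive minus ALDH-negative (vertical axis) for the tested genes of each list, 1 point per gene, as the mean of 3 pools (filled) and of pools 1 and 3 (open), with a bar at the median. The surface epithelium markers lie above 0 in both sets, with medians of 3.52 and 3.76, and Rspo1 and Lgr5 lie within their range, while the medians of the frizzled and Lrp receptors and of the Wnt ligands change sign without pool 2.

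The genes of most similar course over the 6 arrays were taken by Pearson correlation among 12813 other tested genes, as a description in which the arrays share pools and fractions. For Lgr5 they were the deubiquitinase Usp2 (0.982), the transcription factors Maf (0.975) and Wt1 (0.954), the matrix protein Ltbp2 (0.952) and the death receptor Fas (0.952). For Rspo1 they were the scaffold protein Mpdz (0.996), the keratin Krt14 (0.982), Lmo7 (0.979), Vkorc1l1 (0.971) and the potassium channel Kcnk5 (0.971). Rspo1 and Lgr5 correlated at 0.857, which placed Rspo1 at 71 in the order for Lgr5. Among the other members the closest were Sel1l for Lgr4 (0.997), Abcc3 for Lgr6 (0.990), Batf for Rspo3 (0.997), Dnajc14 for Rnf43 (0.973) and A630039O03Rik for Znrf3 (0.999). Without the ALDH-negative array of pool 2 the leading genes for Lgr5 were Atp10d and Tead3 (both 0.994) and for Rspo1 Cyp2s1 and Frmd4a (both 0.998), with Mpdz again among the first 5 at 0.996. The number of genes above 0.95 for Znrf3 was 1474 with that array and 284 without it, against 5 and 42 for Lgr5.

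**Figure D4:**
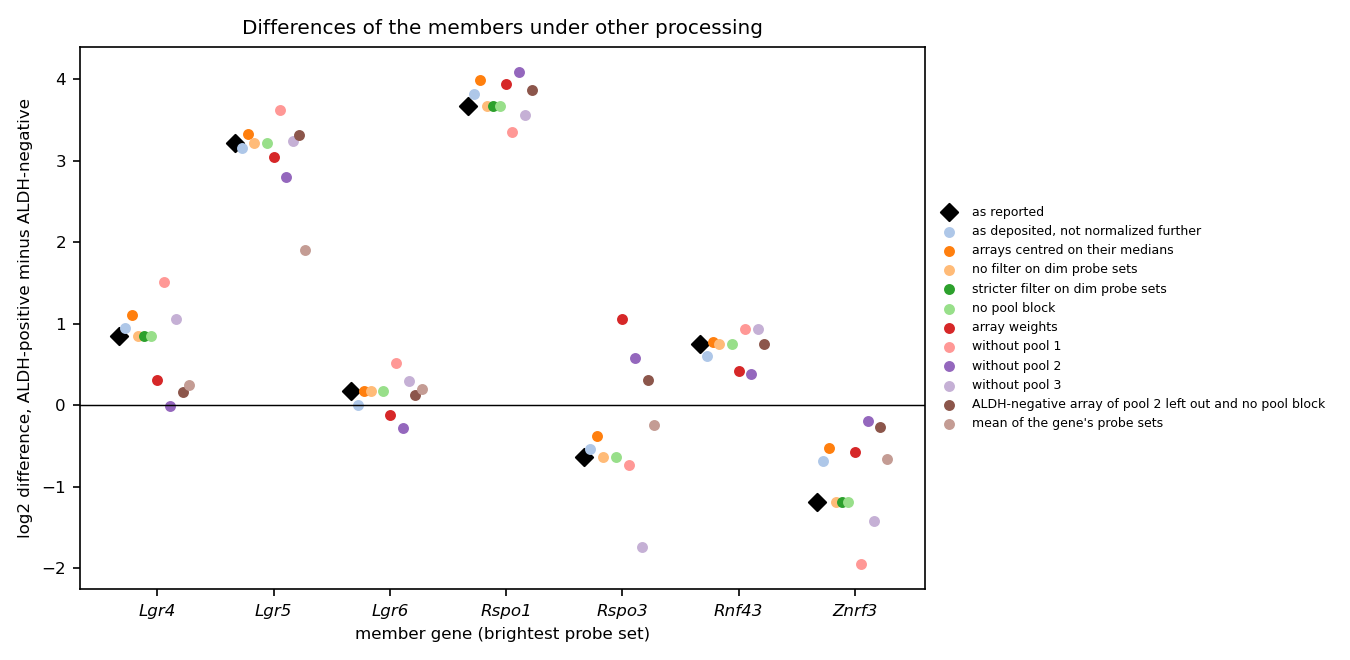
Log2 difference of ALDH-positive minus ALDH-negative (vertical axis) of the brightest probe set of each member, as reported (diamonds) and under each other processing (dots). For genes with 2 probe sets, 1 dot is the mean of both instead. All points of Lgr5 lie between 1.90, which is that mean, and 3.62, and those of Rspo1 between 3.35 and 4.09. The points of Lgr4, Lgr6 and Rspo3 lie on both sides of 0.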

How the data were processed

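RNA of sorted cells was amplified (Ovation Pico WTA kit) and hybridized to Affymetrix Mouse Genome 430 2.0 arrays, per the labels' protocols. The authors analysed the pools in pairs with SAM, per the series design, which was not run here. The deposited table holds 1 log2 value per probe set and array, which the authors handled in GeneSifter, per the series design. The log2 scale was inferred from the range, 0.035 to 13.06. How probes were summarised, background-corrected and normalized is not stated in the labels or headers. Array medians differed by 0.46, so the arrays were quantile normalized after 64 control probe sets were removed. Of 45037 probe sets, 34945 had 1 gene symbol in GEO's platform annotation, 932 had several and 9160 none; 34741 matched the RefSeq table by identifier and no symbol changed. The dimmest 40% were removed, which left 27022, and the probe set of highest mean stood for a gene.

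The test was limma's (version 3.58.1, R 4.3.3), fitted with a term for each pool because the series design pairs the fractions of 3 pools. P-values were adjusted by Benjamini-Hochberg over the whole table of tested probe sets. Same-numbered arrays deviated from their group means with correlations of 0.383, -0.187 and 0.352 in pools 1, 2 and 3, while arrays of different pools reached 0.421. The pairing thus rests on the design and on the assumed match of replicate numbers, and not on these values. The number of arrays limits the precision; SDs are over pools, and SEs are limma's, moderated with the variance of all probe sets (5.42 prior and 2 residual degrees of freedom). The script was tested on simulated data. Alternatives changed the scaling, the filter, the block, the weighting of arrays, the pools kept and the choice of probe set. The members, lists and pairs of members were chosen with earlier results of these data known, so no pattern is independent support. Named genes are the members, up to 4 genes of smallest p per Wnt list with Rspo2, Rspo4, Axin2, Lef1, Lrp5 and Lrp6, and the genes of highest correlation with a member (5 for Lgr5 and Rspo1, otherwise 3, of which the first is named). Figures were drawn with matplotlib 3.10.9.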

Additional observations from a re-analysis of the deposited data

How the results depend on the processing

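Lgr5 and Rspo1 were higher in ALDH-positive cells under all alternatives run, at 1.90 to 3.62 over 10 alternatives for Lgr5 and 3.35 to 4.09 over 10 for Rspo1. Their adjusted p passed 0.05 in 1 setting, limma's array weights (Lgr5 3.04, adjusted p = 1.78e-04; Rspo1 3.94, adjusted p = 9.76e-06), and otherwise lay above it. That setting gave pool 3 a weight 30.8 times that of pool 2 and called 1478 probe sets higher and 1475 lower, and 2 genes of the Wnt lists higher (Cd44, Sox9) and 2 lower (Lrp5, Fzd8), against 0 of each as reported; Lgr6 was then -0.12 and Rspo3 1.05, both with the sign turned. With each pool left out in turn, the difference of Lgr5 ran from 2.80 to 3.62, of Rspo1 from 3.35 to 4.09, of Lgr4 from -0.0070 to 1.51, of Lgr6 from -0.28 to 0.51, of Rspo3 from -1.74 to 0.57, of Rnf43 from 0.38 to 0.93 and of Znrf3 from -1.96 to -0.20; the signs of Lgr4, Lgr6 and Rspo3 turned without pool 2. Counts of probe sets past the threshold ran from 0 to 4 higher and from 0 to 3 lower, the calls coming without pool 1. With the ALDH-negative array of pool 2 left out and no pool block, Rspo3 was 0.30. Without the replicate block, which cannot move a mean difference here (Lgr5 3.22, Rspo1 3.67), the adjusted p was 0.827 for both and 0 probe sets passed, so no call changed. The values as deposited put Lgr6 at 3.33e-04, and the median of all tested genes was -0.08 as reported, 0.08 as deposited and 0.25 with arrays centred on their medians. The stricter filter removed Lgr5, Lgr6, Rspo3 and Rnf43, which have no value there. No detection calls were used, so dim signals such as those of Lgr5 in ALDH-negative cells cannot be placed against background. Apart from the pools and the array weights, whose construction is stated, the cause of these changes was not tested.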

Other observations

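The brighter probe sets of Lgr4 and Znrf3 mirrored each other across the arrays. Their signals correlated at -0.991 over the 6 arrays and at -0.929 over the 5 arrays without the ALDH-negative array of pool 2. On that array the brighter probe set of Lgr4 had its lowest value, 3.77, and that of Znrf3 its highest, 8.14. The dimmer probe sets went the other way there, with Lgr4 at its highest, 4.82, and Znrf3 at its lowest, 3.26. Close courses were common: of 12813 other genes, 1474 correlated above 0.95 with Znrf3 and 435 with Lgr4 over 6 arrays, and 284 and 53 over 5. The dimmer probe set of Znrf3 did not follow this course and correlated with the brighter one of Lgr4 at 0.712 over 6 arrays and 0.497 over 5. The dimmer probe set of Lgr4 and the brighter one of Znrf3 correlated at 0.798 over 6 arrays and at -0.854 over 5. Rnf43 ran closer to Lgr5, at 0.88 for the brighter and 0.736 for the dimmer Lgr5 probe set over 6 arrays, and at 0.866 and 0.726 over 5. These correlations were noticed after the values were seen, describe arrays that share pools, and carry no test.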
